A study of Mus musculus with 12 samples.

Results

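The amino acid transporter families were defined as the protein-coding genes of GENCODE M21 whose symbols begin with Slc1a, Slc3a, Slc6a, Slc7a, Slc36a, Slc38a or Slc43a followed by a number, without *Slc7a11*, *Slc6a12* and *Slc6a6*. This rule found 58 genes among the 55401 gene identifiers of the deposited tables. They were followed in whole-kidney RNA-Seq of 12 male C57BL6 mice aged 8 weeks, 1 library per mouse. The 6 vehicle-treated mice received 15% hydroxypropyl-beta-cyclodextrin, and the 6 SK-124-treated mice received 1 intraperitoneal dose of SK-124 at 40 mg/kg. SK-124 is a small-molecule inhibitor of the salt-inducible kinases SIK2 and SIK3, and the study used it to ask which kidney genes respond when SIK signaling, which PTH normally restrains, is blocked. The animals carried no genetic change, and the time between injection and collection of RNA-Seq tissue is not given separately in the sources used here.

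Amino acids filtered at the glomerulus are taken back almost completely by the proximal tubule, where sodium- and proton-coupled carriers in the brush border draw them in and exchangers in the basolateral membrane pass them on to the blood. Many exchangers are heteromers in which a heavy chain, rBAT (*Slc3a1*) or 4F2hc (*Slc3a2*), brings a light chain of the SLC7 family to the membrane. In the human disease cystinuria, the rBAT and *SLC7A9* pair is the one that fails. Transporters such as *Slc38a2* and *Slc7a5* are found in most cell types and are known for changing with amino acid supply.

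Libraries held between 19244227 and 19771802 expected counts. The 10 genes with the most counts in a library, mostly mitochondrial genes and their nuclear copies, took 39.9% to 43.2% of counts in vehicle-treated mice, 44.4% to 46.8% in SK-124-treated mice 1 to 3 and 38.6% to 40.2% in SK-124-treated mice 4 to 6. Since the 3 libraries above the vehicle range were all SK-124-treated, this difference and the treatment cannot be told apart in them, and results are also given without them. The proximal tubule was well represented: the summed CPM (counts divided by the TMM-scaled library total) of the S1 markers *Slc5a2*, *Slc5a12* and *Lrp2* was 1383 to 1847 in vehicle-treated and 1461 to 1997 in SK-124-treated mice (FDR = 0.542 or more, edgeR). Of the S3 markers, 2 of 3 were higher (*Cyp7b1* and *Atp11a*), with sums of 1140 to 1430 and 1494 to 1853. Of the endothelial markers, 1 of 3 was lower (*Kdr*), with sums of 97.4 to 138.6 and 73.6 to 128.2. Among other markers, the principal cell gene *Aqp2* and the intercalated cell gene *Slc26a4* were higher, and the intercalated cell gene *Slc4a1* and the B cell gene *Cd79a* were lower, at 0.75, 0.27, -0.59 and -1.75 on the log2 scale. The other tested principal, intercalated and immune markers were not called, and principal cell markers went both ways, from -0.35 to 0.75. Of 4 podocyte markers, 1 was called higher, with log2 fold changes from -0.31 to 0.28. Of the tested markers of thick ascending limb, distal convoluted tubule, red blood cells, adrenal and fat, none was called, with the lowest edgeR FDR at 0.0879 for *Umod*, which alone had an unadjusted p under 0.05, and no neuronal marker passed the filter. The part of these markers in the transporter results was not tested, and in whole tissue a change in the number of cells of a type and a change in RNA per cell cannot be told apart.

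Of the 58 transporter genes, 38 passed edgeR's filter on low counts. The other 20 did not exceed 18 counts in any mouse, or 0.853 CPM. Among them were *Slc36a2*, *Slc36a3*, *Slc7a3*, *Slc7a10*, *Slc7a14*, *Slc7a15*, *Slc38a5*, *Slc38a8*, *Slc38a11*, *Slc6a2*, *Slc6a3*, *Slc6a5*, *Slc6a7*, *Slc6a14*, *Slc6a16*, *Slc6a21*, *Slc1a6* and *Slc1a7*. Levels between genes were compared as the authors' TPM, which divides by gene length. In vehicle-treated mice, *Slc7a13* took 17.96% of the summed TPM of all 58 genes, *Slc3a1* 16.0%, *Slc6a18* 8.66% and *Slc3a2* 8.54%, so that these 4 genes together held 51.2%, and the 10 most abundant held 81.4%. The lowest of the 20 most abundant, the glycine carrier gene *Slc6a9*, had a TPM of 5.22 to 6.05 in vehicle-treated mice.

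**Figure D1:**
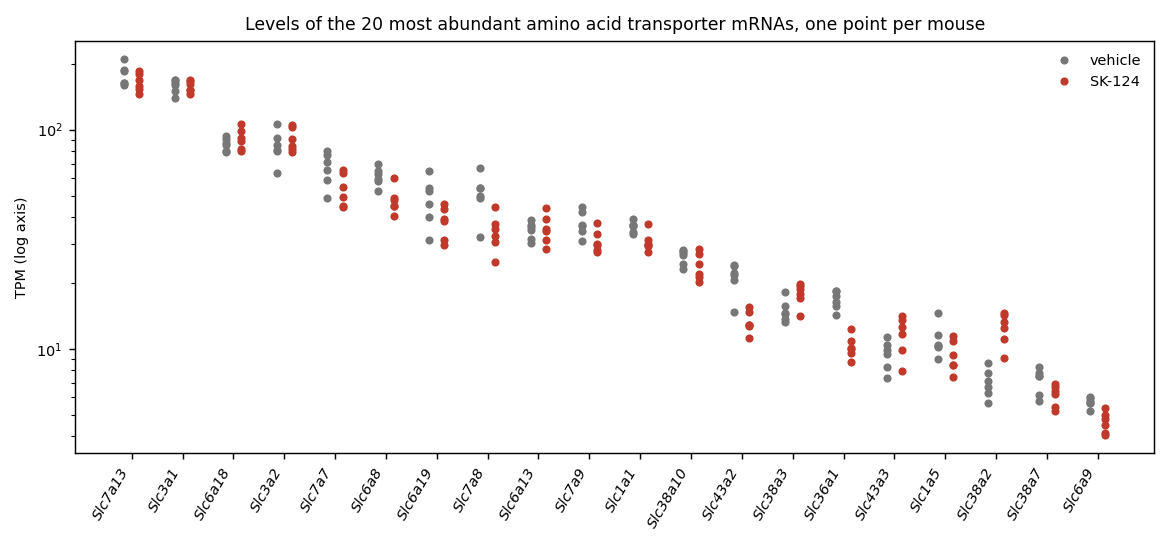
TPM (log axis) of the 20 most abundant amino acid transporter mRNAs, with 1 point per mouse, gray for vehicle and red for SK-124. *Slc7a13* and *Slc3a1* lie at the top with TPM between 139.7 and 208.9 in vehicle-treated mice, apart from *Slc6a18* at 78.7 to 93.3, while most later neighbors overlap.

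In order of level, the ranges of *Slc7a13* (160.1 to 208.9 TPM in vehicle-treated mice) and *Slc3a1* (139.7 to 169.1 TPM) overlapped, and *Slc3a1* was separate from *Slc6a18* (78.7 to 93.3 TPM) in both groups. From *Slc6a18* down to *Slc1a1*, each gene overlapped with its next neighbor in vehicle-treated mice. The order of *Slc3a2* (63.6 to 106.1 TPM) over *Slc7a7* (48.6 to 80.1 TPM) became separate after SK-124, at 79.3 to 104.6 and 44.4 to 65.5 TPM. So did the orders of *Slc38a10* over *Slc43a2*, *Slc38a3* over *Slc36a1* and *Slc38a2* over *Slc38a7*. The reverse, from separate to overlapping, was seen for *Slc1a1* over *Slc38a10*, *Slc36a1* over *Slc43a3* and *Slc1a5* over *Slc38a2*.

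The comparison of treatments was made with edgeR's quasi-likelihood test on expected counts, with Benjamini-Hochberg adjustment over the 14159 genes tested (FDR), and a gene was called at an FDR under 0.05. With SK-124, 9 of the 38 tested transporter genes were higher (23.7%, where 10.8% of all genes tested were called higher) and 6 were lower (15.8%, where 13.5% of all genes tested were called lower). Their median log2 fold change was 0.02, and that of all genes tested was -0.01. A change of at least 1.5-fold was seen for *Slc38a2* and *Slc7a5*, which were higher (3.59% of all genes tested), and for *Slc1a4* and *Slc6a4*, which were lower (4.71% of all genes tested). In CPM, all SK-124-treated mice stood above all vehicle-treated mice for *Slc3a1*, *Slc6a18* and *Slc38a2* (6.32% of all genes tested), and below them for *Slc36a1* and *Slc1a4* (6.65% of all genes tested). Under scaling by library totals alone the split was 4 higher and 11 lower, where 777 of all 14159 genes tested were higher and 3058 lower. With limma on log2(TPM + 1) it was 1 higher and 7 lower, where 500 of all genes tested were higher and 2130 lower. Those scalings moved the median of all genes tested to -0.12 and -0.11 on the log2 scale, so fold changes below are relative to a typical gene.

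**Figure D2:**
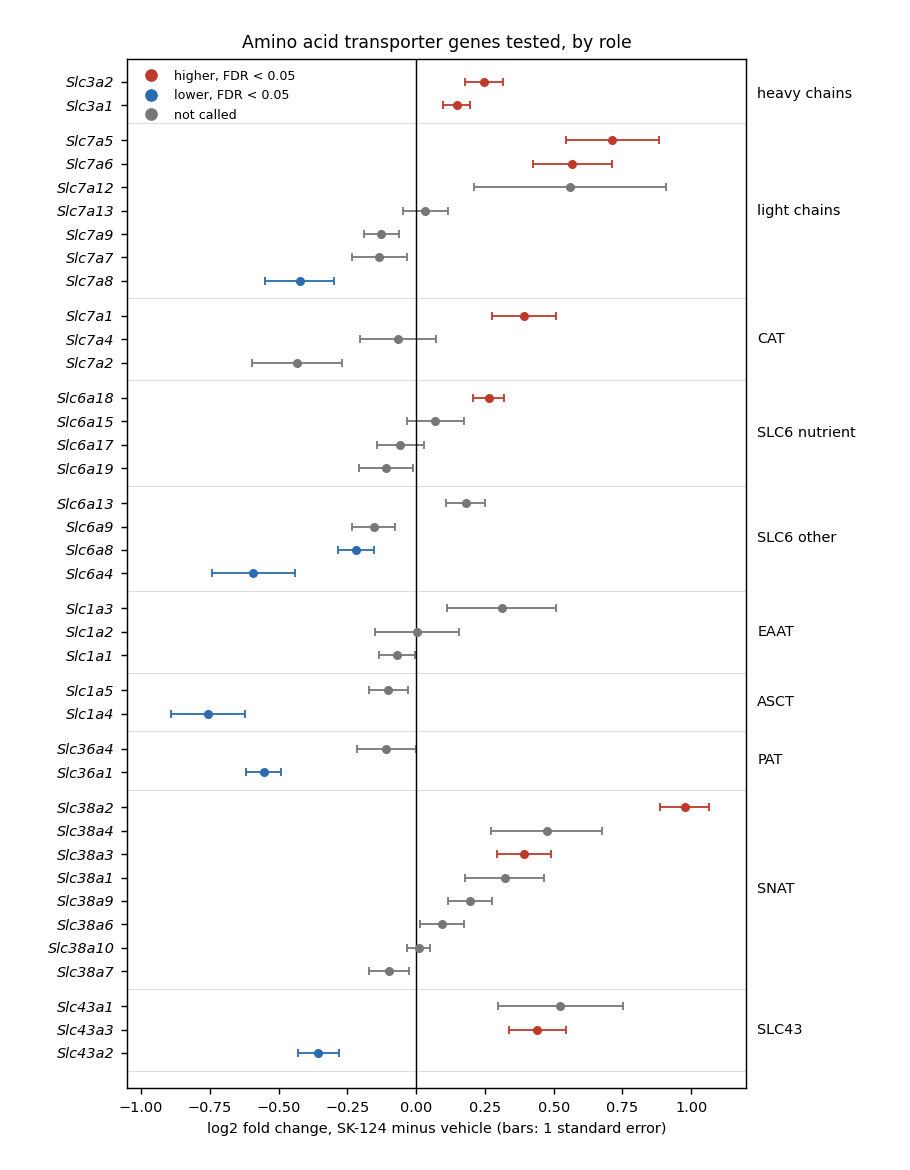
Log2 fold change of the 38 tested amino acid transporter genes, SK-124 minus vehicle, grouped by role, with bars of 1 standard error and 6 mice per group. *Slc38a2* lies furthest right at 0.98 and *Slc1a4* furthest left at -0.76. Both heavy chains are among the 9 genes called higher, although neither is called in TPM, where *Slc3a1* turns to -0.01.

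Promoter windows for 41 of the 58 genes, some with several start sites, were at hand from RefSeq (GRCm38.p6). They are shown for *Slc38a2*, the largest rise, for *Slc1a4* and *Slc6a4*, the largest falls, and for the abundant heavy chain *Slc3a1*. CREB, the factor through which SIK substrates of the CRTC family act, binds the sequence TGACGTCA (CRE) and its shorter core TGACG, and ATF4 with C/EBP factors binds TGATGCAA, so these were searched on both strands together with the FOX site TGTTTAC. Each line gives 150 bases before the start site and 10 from it, 5′ to 3′ on the strand of the gene, with matches in capitals.
Slc38a2, chr15:96699719-96699878, minus strand: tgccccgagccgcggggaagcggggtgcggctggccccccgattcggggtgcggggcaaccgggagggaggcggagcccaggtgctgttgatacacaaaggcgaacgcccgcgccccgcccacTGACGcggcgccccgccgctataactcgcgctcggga
Slc1a4, chr11:20332704-20332863, minus strand: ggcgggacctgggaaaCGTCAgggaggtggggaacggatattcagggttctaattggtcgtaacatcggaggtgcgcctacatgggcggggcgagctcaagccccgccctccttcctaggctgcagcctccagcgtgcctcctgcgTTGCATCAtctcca
Slc6a4, chr11:76998447-76998606, plus strand: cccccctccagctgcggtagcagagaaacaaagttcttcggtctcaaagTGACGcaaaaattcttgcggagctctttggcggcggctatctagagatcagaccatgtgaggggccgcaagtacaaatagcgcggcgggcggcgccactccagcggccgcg
Slc3a1, chr17:85028197-85028356, plus strand: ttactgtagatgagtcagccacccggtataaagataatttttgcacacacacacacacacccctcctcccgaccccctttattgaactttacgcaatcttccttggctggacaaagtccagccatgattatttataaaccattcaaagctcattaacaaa

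TGACG began 27 bases before the start site of *Slc38a2* and 101 bases before that of *Slc6a4*. In *Slc1a4* it stood on the other strand, printed as CGTCA, 134 bases before the start, and TGATGCAA, printed as TTGCATCA, began 4 bases before it. Over the whole windows of 300 bases, TGACG was found in 15 of the 58 windows that these 41 genes have (25.9%), in 20.8% of all 32851 promoters and in 29.3% of the promoters of genes tested. By direction, it was in 4 of 7 windows of the 5 genes called higher that had one. These belong to *Slc38a2*, *Slc7a1* and *Slc7a6*, and the windows of *Slc7a6* overlap and hold the same site. TGACG was in 3 of 6 windows of the 5 genes called lower that had one, namely *Slc1a4*, *Slc36a1* and *Slc6a4*. TGATGCAA was found in *Slc1a4* and *Slc7a7*, with the same *Slc7a7* site counted in overlapping windows (5.17% of the windows of these genes). It was found in 0.895% of all promoters and in 0.586% of the promoters of genes tested. The longer CRE, which contains the core on both strands, was found in *Slc38a6* (1.72% against 1.79% of all promoters) and the FOX site in *Slc36a3* (1.72% against 3.65%), and neither of these was a called gene. Among the promoters of genes tested, each of these 2 motifs was found in 2.79%.

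Both heavy chains were called higher with SK-124 in TMM-scaled counts, but neither was called in TPM. *Slc3a1* encodes rBAT, the heavy chain of the brush border (ENSMUSG00000024131.8, chromosome 17, 85028376 to 85064236, GENCODE M21, GRCm38). The lowest, median and highest CPM of *Slc3a1* was 340.8, 355.1 and 365.5 in vehicle-treated mice and 369.2, 392.5 and 413.5 in SK-124-treated mice. The groups did not overlap, although the step between them was small. With SE for the standard error, *Slc3a1* changed by 0.15 on the log2 scale (SE 0.048, edgeR FDR = 0.0339). This call was lost in 7 of the 12 fits that left out 1 mouse, namely vehicle-treated mice 2, 4, 5 and 6 and SK-124-treated mice 1, 2 and 3, with an FDR of 0.0545 to 0.0743 for log2 fold changes of 0.13 to 0.15. The call was also lost with no filter on low counts (0.15, FDR = 0.0919) and with library totals (0.03, FDR = 0.749). The log2 fold change was 0.09 (FDR = 0.332) without SK-124-treated mice 1 to 3, and in TPM it turned to -0.01 (FDR = 0.964, limma) as medians of 161.6 TPM and 157.0 TPM. *Prepl*, which overlaps *Slc3a1* on the opposite strand, had a mean of 17.4 CPM against 374.0 CPM.

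*Slc3a2* encodes 4F2hc, the heavy chain of the basolateral and the widely expressed exchangers (chromosome 19, 8706882 to 8723369). Its CPM was 133.1 at the lowest, 159.0 at the median and 181.1 at the highest in vehicle-treated mice, and 164.2, 188.0 and 202.4 in SK-124-treated mice. Of the SK-124-treated mice, 5 of 6 stood above all vehicle-treated mice. The log2 fold change of *Slc3a2* was 0.25 (SE 0.069, edgeR FDR = 0.0147), and 0.24 without SK-124-treated mice 1 to 3, where the FDR was 0.0987. With library totals alone it was 0.13 (FDR = 0.295), and in TPM 0.11 (FDR = 0.544, limma).

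The light chains moved in different directions. Of 9 genes, 7 were tested, and *Slc7a5* and *Slc7a6* were higher while *Slc7a8* was lower. *Slc7a5* encodes LAT1, an exchanger of large neutral amino acids known from growing cells (chromosome 8, 121881150 to 121907694). Its lowest, median and highest CPM was 0.970, 1.36 and 1.97 in vehicle-treated mice and 1.80, 2.36 and 2.67 in SK-124-treated mice, which were 19 to 54 counts per mouse. All 6 SK-124-treated mice lay above the vehicle median, and 5 of 6 above the vehicle maximum. *Slc7a5* changed by 0.71 on the log2 scale (SE 0.17, edgeR FDR = 0.00475). It was 0.65 (FDR = 0.0600) in SK-124-treated mice 1 to 3 alone and 0.47 (FDR = 0.117, limma) on log2(TPM + 0.1). The annotated gene *Gm20388* overlaps *Slc7a5* on the opposite strand with a mean of 27.5 CPM, against 1.86 CPM for *Slc7a5*, and since strand use is not stated, reads of the 2 genes may not be told apart.

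*Slc7a6* encodes y+LAT2, which exchanges cationic for neutral amino acids. It was higher by 0.57 on the log2 scale (FDR = 0.00737, edgeR), with 1.76 to 2.85 CPM in vehicle-treated and 2.74 to 3.91 CPM in SK-124-treated mice, and 0.44 (FDR = 0.0973) in SK-124-treated mice 1 to 3 alone. The call of *Slc7a6* was also lost with library totals (0.46, FDR = 0.05001) and with limma on log2(TPM + 1) (0.27, FDR = 0.0990) and log2(TPM + 0.1) (0.48, FDR = 0.0968). *Slc7a7*, the y+LAT1 light chain of the basolateral membrane (chromosome 14, 54369442 to 54417780), is the close relative of *Slc7a6* and far more abundant here. Its CPM was 103.6, 134.4 and 143.9 at the lowest, median and highest in vehicle-treated mice and 89.1, 122.9 and 137.6 in SK-124-treated mice. The ranges overlapped, and the log2 fold change of *Slc7a7* was -0.13 (SE 0.10, FDR = 0.370). *Oxa1l* overlaps *Slc7a7* on the opposite strand with a mean of 65.0 CPM.

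*Slc7a8* encodes LAT2, the basolateral exchanger of neutral amino acids (chromosome 14, 54722209 to 54781946). The CPM of *Slc7a8* was 148.1 at the lowest, 215.6 at the median and 261.1 at the highest in vehicle-treated mice, and 124.1, 159.3 and 197.3 in SK-124-treated mice. All 6 SK-124-treated mice lay below the vehicle median, with 2 of them below the vehicle minimum, which was set by mouse 3. The log2 fold change of *Slc7a8* was -0.42 (SE 0.13, edgeR FDR = 0.0197). It was -0.36 (FDR = 0.0521) without vehicle-treated mouse 6 and -0.37 (FDR = 0.0508) without SK-124-treated mouse 6, while without SK-124-treated mice 1 to 3 it was -0.45 (FDR = 0.0510) and in those mice alone -0.39 (FDR = 0.115).

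The light chains of the brush border, *Slc7a9* and *Slc7a13*, were not called with TMM scaling. *Slc7a9*, the b0,+AT partner of rBAT (chromosome 7, 35448796 to 35466036), had 56.8, 61.4 and 70.0 CPM at the lowest, median and highest in vehicle-treated mice and 49.9, 58.1 and 61.4 CPM in SK-124-treated mice. With a log2 fold change of -0.13 (SE 0.064, edgeR FDR = 0.167) it did not pass the test, although scaling by library totals gave -0.24 (FDR = 0.0279). *Slc7a13*, the AGT1 light chain of the straight proximal tubule and the most abundant transporter here (chromosome 4, 19818725 to 19842218), had 317.4, 373.1 and 437.7 CPM in vehicle-treated mice and 344.9, 389.0 and 420.4 CPM in SK-124-treated mice. Its groups overlapped throughout, and its log2 fold change of 0.03 (SE 0.081, FDR = 0.810) turned to -0.08 with library totals and -0.11 in TPM, neither of which was called. Relative to the median of all genes tested, *Slc7a13* was 0.04 with TMM and with library totals. On that basis it was 0.03 on log2(TPM + 0.1) and -0.002 on log2(TPM + 1). *Slc7a12*, a kidney light chain of unknown partner, ranged after SK-124 from 1.002 to 9.44 CPM, against 2.57 to 4.51 CPM with vehicle. Its log2 fold change was 0.56 (SE 0.35, FDR = 0.277), and it was called higher when only SK-124-treated mice 1 to 3 were kept.

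Ratios of heavy to light chain TPM within a mouse do not depend on library scaling, and 6 pairs known to form exchangers are described here without a test, since they were chosen after the fold changes were seen. *Slc3a2* exceeded *Slc7a8* by 1.57 to 1.963 times in vehicle-treated mice and by 2.14 to 3.39 times in SK-124-treated mice, with medians of 1.63 and 2.73. *Slc3a2* exceeded *Slc7a7* by 1.19 to 1.38 times in vehicle-treated mice and by 1.45 to 2.02 times in SK-124-treated mice. The groups did not overlap for these 2 ratios and overlapped for the other 4. How often the groups separate for ratios of other gene pairs was not examined. *Slc3a1* was 3.83 to 4.72 times *Slc7a9* with vehicle and 4.44 to 5.59 times with SK-124, while *Slc3a1* to *Slc7a13* was 0.746 to 1.04 and 0.907 to 1.03. Against the rarer partners, the median ratio of *Slc3a2* went the other way, from 227.4 to 154.5 for *Slc7a5* and from 89.5 to 60.9 for *Slc7a6*.

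**Figure D3:**
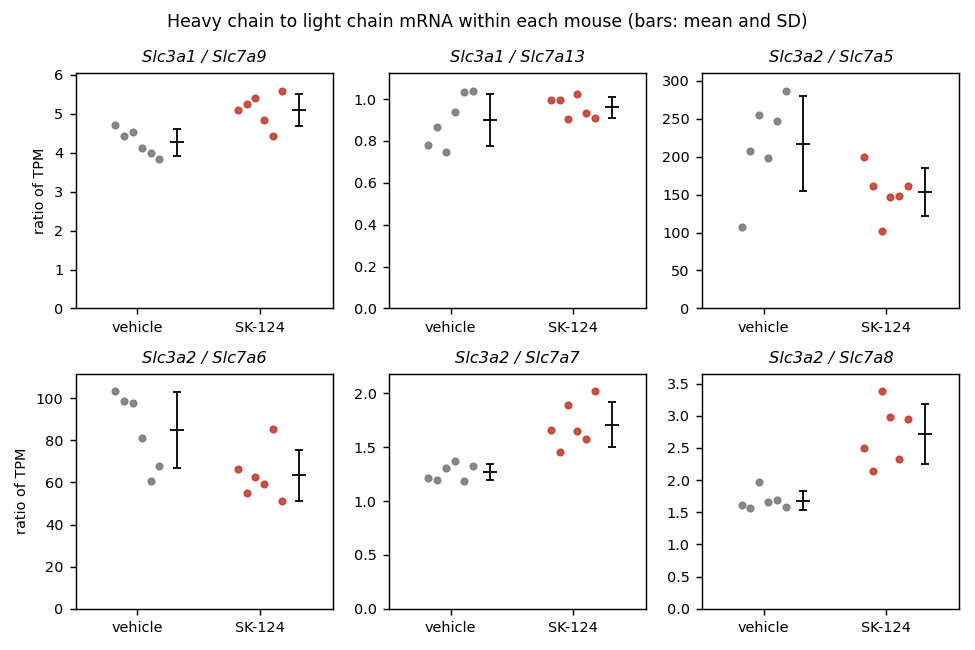
Ratio of heavy chain to light chain TPM in each mouse for 6 pairs, with 6 points per group and bars of the mean and SD. The *Slc3a2* to *Slc7a7* and *Slc3a2* to *Slc7a8* ratios lie at 1.45 or more and 2.14 or more in all SK-124-treated mice, over the vehicle maxima of 1.38 and 1.963.

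Among the cationic amino acid transporters and their relatives, 3 of 5 genes were tested. *Slc7a1* encodes CAT1, the widespread carrier of arginine and lysine. It was higher by 0.39 on the log2 scale (FDR = 0.0193, edgeR), with 6.13 to 9.63 CPM in vehicle-treated and 7.99 to 11.8 CPM in SK-124-treated mice. It was no longer called in SK-124-treated mice 1 to 3 alone (0.37, FDR = 0.108), with library totals (0.28, FDR = 0.124) or with limma on log2(TPM + 1) (0.14, FDR = 0.254) and log2(TPM + 0.1) (0.26, FDR = 0.277). *Slc7a2*, the related CAT2, had a log2 fold change of -0.43 (FDR = 0.0645) and *Slc7a4* one of -0.07 (FDR = 0.777).

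The nutrient carriers of the SLC6 family take neutral amino acids across the brush border with sodium, and 4 of 7 were tested. *Slc6a18*, a neutral amino acid carrier of the late proximal tubule (chromosome 13, 73661752 to 73678023), had 252.0, 264.0 and 291.5 CPM at the lowest, median and highest in vehicle-treated mice and 294.4, 320.5 and 357.5 CPM in SK-124-treated mice. No SK-124-treated mouse fell within the vehicle range. *Slc6a18* changed by 0.26 on the log2 scale (SE 0.056, edgeR FDR = 0.00223), with 0.23 (FDR = 0.0311) without SK-124-treated mice 1 to 3 and 0.30 (FDR = 0.00760) in them alone. It was 0.15 (FDR = 0.0932) with library totals and 0.09 (FDR = 0.524, limma) in TPM.

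*Slc6a19*, which encodes B0AT1, the main brush border carrier of neutral amino acids, is annotated 1722 bases from *Slc6a18* on the same strand (chromosome 13, 73679745 to 73704865). The CPM of *Slc6a19* was 125.8, 168.5 and 188.5 at the lowest, median and highest in vehicle-treated mice and 121.6, 160.5 and 173.8 in SK-124-treated mice. In contrast to its neighbor, its ranges overlapped, and its log2 fold change was -0.11 (SE 0.099, FDR = 0.469). The difference between these 2 neighbors was not tested. *Slc6a15* and *Slc6a17*, better known from the brain, had log2 fold changes of 0.07 and -0.06 (FDR = 0.676 and 0.673). *Cltrn*, or collectrin, a chaperone of these carriers that was measured outside the rule, had a log2 fold change of 0.02 (FDR = 0.784).

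Among the SLC6 carriers of transmitters, glycine, proline and creatine, 4 of 10 were tested and 2 were lower. *Slc6a8* encodes the creatine transporter (chromosome X, 73673150 to 73682502). The CPM of *Slc6a8* was 175.5, 196.1 and 212.7 at the lowest, median and highest in vehicle-treated mice and 152.3, 164.0 and 190.6 in SK-124-treated mice. Of 6 SK-124-treated mice, 4 lay below the vehicle minimum. The log2 fold change of *Slc6a8* was -0.22 (SE 0.065, edgeR FDR = 0.0215). The FDR rose to 0.0548, 0.0522 and 0.0573 without vehicle-treated mouse 2, vehicle-treated mouse 6 and SK-124-treated mouse 6, where the log2 fold change was -0.19, -0.20 and -0.19, and it was 0.0886 and 0.0894 when SK-124-treated mice 4 to 6 alone, or 1 to 3 alone, were kept.

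*Slc6a4* encodes the serotonin transporter, known from neurons and platelets (chromosome 11, 76998603 to 77032340). Its CPM was 2.92, 3.32 and 4.70 at the lowest, median and highest in vehicle-treated mice and 1.77, 2.19 and 3.01 in SK-124-treated mice, on 35 to 99 counts per mouse. In SK-124-treated mice 5 of 6 values were below the vehicle minimum. *Slc6a4* changed by -0.59 on the log2 scale (SE 0.15, edgeR FDR = 0.00761), and -0.38 (FDR = 0.171) in SK-124-treated mice 1 to 3 alone against -0.81 (FDR = 0.00612) in mice 4 to 6. The neuronal markers *Tubb3*, *Snap25*, *Rbfox3* and *Syt1* summed to 0.427 to 0.938 CPM in vehicle-treated and 0.347 to 0.792 CPM in SK-124-treated mice, so they were near 0 in both groups. *Slc6a13* encodes the GABA carrier GAT2 (chromosome 6, 121300227 to 121337733). It had 60.5, 72.2 and 80.7 CPM with vehicle and 72.9, 82.2 and 90.0 CPM with SK-124. All 6 SK-124-treated mice exceeded the vehicle median, yet its log2 fold change of 0.18 (SE 0.069, edgeR FDR = 0.0712) did not pass, and it passed with DESeq2 (0.19, FDR = 0.0485).

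The SLC1 family holds glutamate transporters and the neutral exchangers ASCT1 and ASCT2. *Slc1a4* encodes ASCT1, an exchanger of alanine, serine and cysteine (ENSMUSG00000020142.12, chromosome 11, 20302180 to 20332713). The CPM of *Slc1a4* was 13.98 at the lowest, 18.5 at the median and 22.7 at the highest in vehicle-treated mice, and 8.74, 10.1 and 13.97 in SK-124-treated mice. The highest SK-124-treated mouse, at 13.97, lay just below the lowest vehicle-treated mouse, at 13.98. The log2 fold change of *Slc1a4* was -0.76 (SE 0.13, edgeR FDR = 0.000441), the largest fall among the called genes, and it passed under all 25 alternative fits, with log2 fold changes of -0.87 to -0.68. *Slc1a5*, which encodes ASCT2, a glutamine exchanger, had a log2 fold change of -0.10 (FDR = 0.341). The 3 glutamate transporters tested ranged from -0.07 for *Slc1a1*, the EAAC1 carrier of the brush border, to 0.31 for *Slc1a3*, with an FDR of 0.287 or more.

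*Slc36a1* encodes PAT1, a proton-coupled carrier of small amino acids that also sits on lysosomes. It had 83.7, 87.9 and 99.8 CPM at the lowest, median and highest in vehicle-treated mice and 53.7, 62.0 and 66.3 CPM in SK-124-treated mice. The highest SK-124-treated mouse lay far below the lowest vehicle-treated mouse. *Slc36a1* changed by -0.55 on the log2 scale (SE 0.064, edgeR FDR = 5.32e-06) and stayed called in all 25 alternative fits, between -0.70 and -0.52. The relative *Slc36a4* had a log2 fold change of -0.11 (FDR = 0.516). *Slc36a3*, *Slc36a2* and *Slc36a1* lie next to each other on chromosome 11, 6762 and 19273 bases apart, and the first 2 were among the genes too low to test.

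The sodium-coupled neutral transporters of the SLC38 family, which carry glutamine and alanine, contained the largest rise. Of 11 genes, 8 were tested, 2 were called higher and 6 were not called, where 10.8% of all genes tested were called higher. Their log2 fold changes ran from -0.10 to 0.98 with a median of 0.26, where that of all genes tested was -0.01. *Slc38a2* encodes SNAT2, known for rising when cells lack amino acids (ENSMUSG00000022462.7, chromosome 15, 96687392 to 96699730). The CPM of *Slc38a2* was 30.1 at the lowest, 34.8 at the median and 39.5 at the highest in vehicle-treated mice, and 56.2, 65.3 and 83.1 in SK-124-treated mice. The lowest SK-124-treated mouse was well above the highest vehicle-treated mouse. The log2 fold change of *Slc38a2* was 0.98 (SE 0.090, edgeR FDR = 3.99e-07), or 1.97-fold, and all 25 alternative fits called it, between 0.74 and 1.02.

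*Slc38a3* encodes SNAT3, the glutamine carrier of the basolateral membrane that feeds ammonia production in acidosis. It was higher by 0.39 (FDR = 0.00705, edgeR), with 29.0 to 47.5 CPM in vehicle-treated and 41.1 to 55.1 CPM in SK-124-treated mice, and 0.25 (FDR = 0.102, limma) on log2(TPM + 0.1). *Slc38a1*, which lies 44479 bases from *Slc38a2* on the same strand, had a log2 fold change of 0.32 (FDR = 0.120) at 2.23 to 4.16 CPM over all mice. *Slc38a9*, a lysosomal arginine sensor, had one of 0.20 (FDR = 0.0889), and it was called higher when only SK-124-treated mice 1 to 3 were kept. *Slc38a10* was the least changed of the 20 most abundant genes, with a log2 fold change of 0.01 (FDR = 0.905) at 108.9 to 118.4 CPM over all mice.

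Of the SLC43 facilitators, *Slc43a3*, which carries purine bases, was higher and *Slc43a2*, the LAT4 carrier of branched-chain and aromatic amino acids, was lower. *Slc43a3* rose by 0.44 on the log2 scale (FDR = 0.00424, edgeR), with 19.97 to 26.6 CPM in vehicle-treated and 24.3 to 39.6 CPM in SK-124-treated mice, and 0.29 (FDR = 0.168, limma) on log2(TPM + 0.1). *Slc43a2* fell by 0.36 on the log2 scale (FDR = 0.00181, edgeR), from 98.2 to 130.1 CPM in vehicle-treated mice to 83.4 to 104.7 CPM in SK-124-treated mice. In TPM the change of *Slc43a2* was larger, -0.66 on log2(TPM + 0.1) (FDR = 0.000772, limma). Its RSEM effective length, an average over its transcripts weighted by their estimated abundance, was 5031 to 5653 bases in vehicle-treated mice and 5751 to 6047 bases in SK-124-treated mice. The groups did not overlap, which was the case for 1 of the 38 tested transporters and for 0.438% of all genes tested. This length was looked at after the values of *Slc43a2* were seen. *Gm45606*, an antisense gene of *Slc43a2*, had a mean of 5.26 CPM against 107.9 CPM and itself fell by 1.03 on the log2 scale (FDR = 6.55e-06). The third member, *Slc43a1*, had a log2 fold change of 0.52 (FDR = 0.107).

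**Figure D4:**
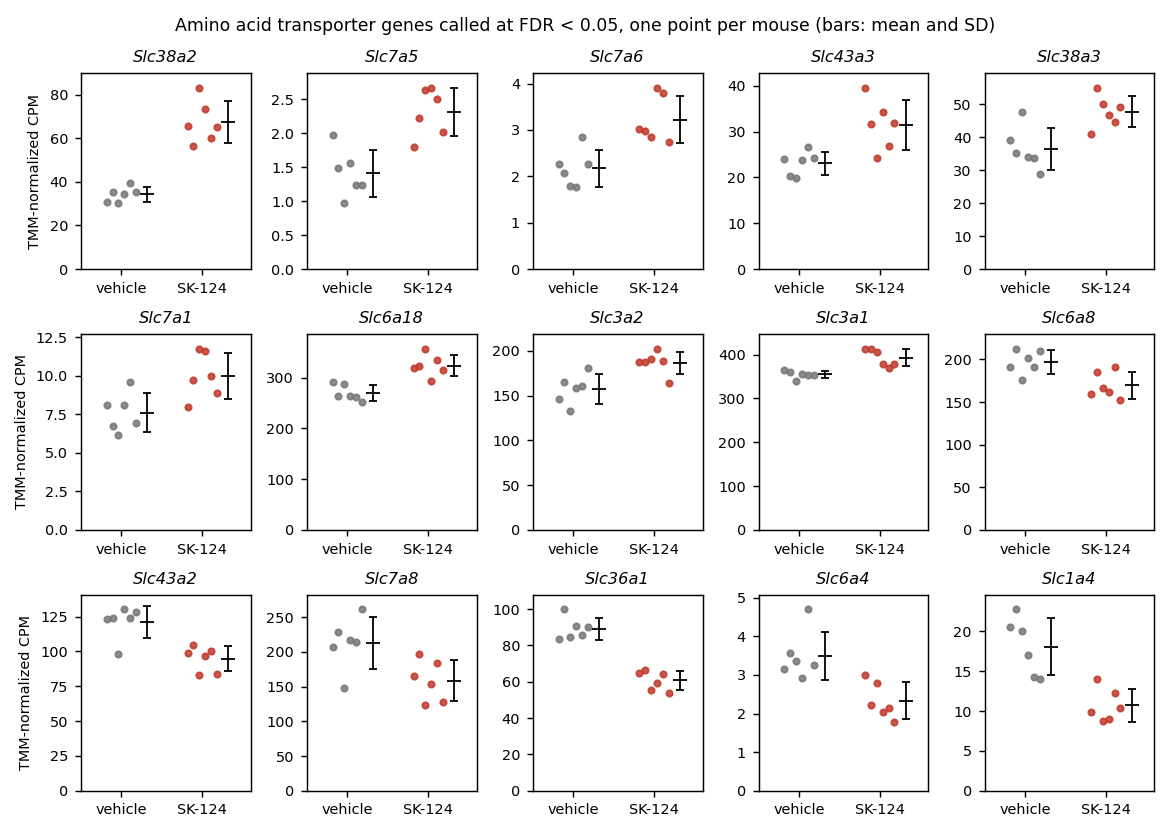
TMM-normalized CPM of the 15 called transporter genes in each mouse, with bars of the mean and SD and 6 mice per group. *Slc38a2*, *Slc36a1*, *Slc6a18*, *Slc3a1* and *Slc1a4* show groups that do not overlap, and for *Slc1a4* the nearest mice are at 13.98 and 13.97 CPM.

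Of the 15 called genes, *Slc38a2*, *Slc1a4*, *Slc36a1* and *Slc43a2* were called in all 25 alternative fits named in the closing section, and with the 1.5-fold threshold *Slc36a1* and *Slc43a2* were not. The plot of scalings shows where the others crossed the threshold. Relative to the median of all genes tested, which was -0.12 with library totals, *Slc3a1* was 0.15, *Slc3a2* 0.25 and *Slc6a18* 0.27, and with log2(TPM + 0.1), where the median was -0.14, these were 0.14, 0.25 and 0.23.

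**Figure D5:**
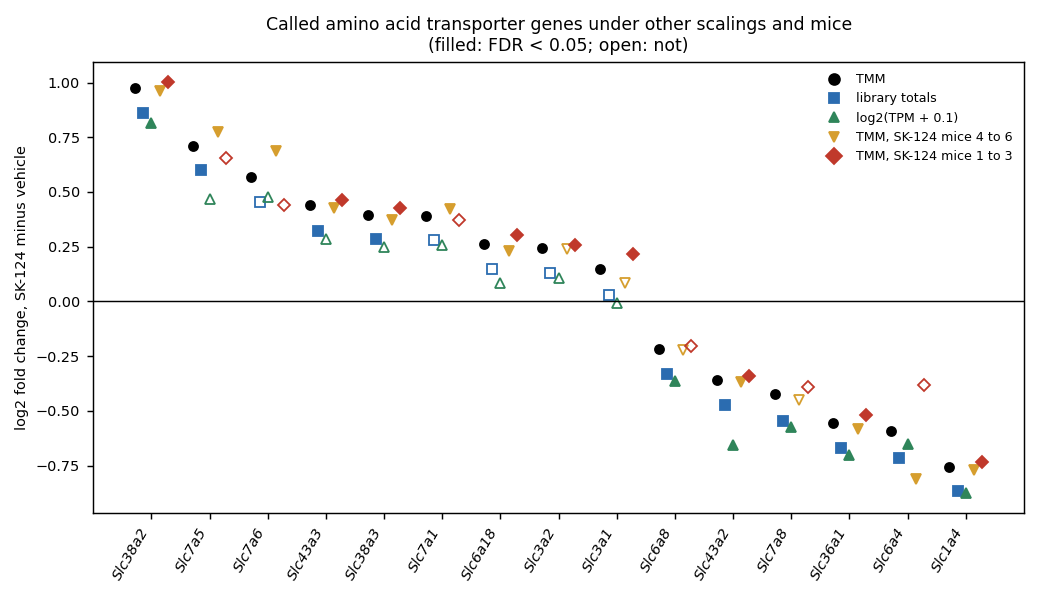
Log2 fold change of the 15 called transporter genes under TMM, library totals, limma on log2(TPM + 0.1), and TMM restricted to SK-124-treated mice 4 to 6 or to 1 to 3, with filled symbols for an FDR under 0.05. *Slc3a1* crosses 0, from 0.15 under TMM to -0.01 in TPM, and the other 14 keep their direction.

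Genes around these transporters were compared as lists. Of carriers and partners outside the rule, 3 of 16 tested were higher and 1 was lower, with a median log2 fold change of 0.05. The largest was *Slc25a22*, a mitochondrial glutamate carrier, at 1.80 (FDR = 8.34e-06, edgeR), and *Ctns*, the lysosomal cystine carrier, was at 0.24 (FDR = 0.0199). *Slc25a15*, the mitochondrial ornithine carrier, fell by 0.24 (FDR = 0.00733). Of the 3 family genes left out by the rule, *Slc6a6*, the taurine transporter, was higher by 0.32 (FDR = 0.00340), *Slc6a12* had a log2 fold change of 0.14 (FDR = 0.719), and *Slc7a11* did not exceed 3 counts in any mouse.

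In the list of amino acid sensing to mTORC1, 6 of 24 genes were higher and none was called lower. Log2 fold changes ran from -0.63 to 1.87, with a median of 0.04. The largest rises were *Sesn2*, a leucine sensor, at 1.87 and *Sesn1* at 0.95, followed by *Castor1*, an arginine sensor, at 0.55 and *Flcn* at 0.51 (edgeR, FDR = 5.97e-12, 3.03e-06, 0.000972 and 3.87e-06). In the list of ATF4 and the amino acid response, 6 of 14 tested were higher, with a median of 0.27. *Cebpb*, a partner of ATF4 on TGATGCAA, rose by 2.02, *Chac1* by 1.80 on at most 34 counts, *Eif4ebp1* by 0.51 and *Psat1* by 0.48. *Atf4* itself, named after its value was seen, was higher by 0.44 (FDR = 0.00115), and *Asns*, asparagine synthetase, had a log2 fold change of 0.35 (FDR = 0.123).

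Enzymes that use what the carriers bring in were taken as 2 further lists. In glutamine and ammonia metabolism, 6 of 11 tested were higher and 1 was lower, with a median of 0.31. *Pck1*, a gluconeogenic enzyme of the ammonia pathway, was at 1.84, *Glul*, glutamine synthetase, at 1.598 and *Got1*, an aspartate aminotransferase, at 0.95, while *Gpt2*, an alanine aminotransferase, was at -0.52 on the log2 scale. In amino acid breakdown, 7 of 21 tested were higher, with a median of 0.07, led by *Arg2*, arginase 2, at 2.23, *Bcat1*, a branched-chain aminotransferase, at 1.21, *Gldc*, of glycine cleavage, at 0.92 and *Hpd*, of tyrosine breakdown, at 0.70. These lists are small and were described beside the 10.8% of all genes tested that were called higher and the 13.5% called lower. They were chosen with earlier results of these data known, and their shares were not tested against those of all genes.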

How the data were processed

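RNA from whole kidney was sequenced by the submitters on a BGISEQ-500, and their processing notes name STAR 2.7.2b, RSEM 1.3.0, DESeq2 and mm10. Strand use and annotation release are not given in the sources used here. The authors deposited for each mouse an expected count (estimated reads per gene, not normalized) and a TPM, scaled by RSEM to effective length and a fixed total, beside that effective length in bases. Fractional values made up 3.82% of all expected counts and 0% of those of the transporters.

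Of 55401 identifiers, 54349 matched GENCODE M21 with their version, and 57 of the 58 transporters did, *Slc1a7* without it. Expected counts were rounded, scaled by TMM, passed through filterByExpr, and compared between treatments by the quasi-likelihood test of edgeR (R 4.3.3, edgeR 4.0.16, no block), and FDR is the Benjamini-Hochberg adjusted p over 14159 genes. The biological coefficient of variation was 0.101. Alternatives used DESeq2 1.42.0 and limma 3.58.1, and figures used matplotlib 3.10.9. No 2 libraries of the same group looked alike (smallest chi-square per degree of freedom 4.69 over 30 pairs), and nothing in the labels names a batch. Libraries are 1 per mouse, so p-values measure the spread between mice.

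The members and lists were chosen with earlier results of these data known. Full values are given for transporters changed at least 1.5-fold at an FDR under 0.05 and for the 10 with the highest mean TPM, and for other called genes the fold change, FDR and range. Others named are examples chosen from the lists, of which at most 4 per list of surrounding genes are the largest called changes. *Slc43a2*'s length, *Slc36a1*'s values in full, *Atf4*, *Asns*, *Cltrn* and the uncalled relatives were named after their values were seen. Some single-gene results are not reported here.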

Additional observations from a re-analysis of the deposited data

Results flagged for a closer look

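For the 20 named or called transporters, 40 groups of 6 mice were checked for a mouse far from the others by Dixon's criterion, of which chance flags about 1 in 20, or 2 groups. Exactly 2 were found. Vehicle-treated mouse 3 had the lowest *Slc43a2* of its group, at 98.2 CPM, where the next mouse was at 123.1 CPM, and without it the log2 fold change of *Slc43a2* was -0.41. Vehicle-treated mouse 5 had the highest *Slc6a4* of its group, at 4.70 CPM, where the next was at 3.57 CPM, and without it the log2 fold change of *Slc6a4* was -0.49. Both genes were still called without these mice.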

How the results depend on the processing

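The 9 higher and 6 lower genes were recounted under 26 alternatives. With library totals only, 4 were higher and 11 lower, where all genes tested gave 777 higher and 3058 lower. With limma on log2(TPM + 1) or log2(TPM + 0.1), 1 was higher and 7 lower. All genes tested then gave 500 or 498 higher and 2130 or 2118 lower. With only SK-124-treated mice 1 to 3, 8 were higher and 3 lower, and 9 of the 15 calls were kept. *Slc6a8*, *Slc6a4*, *Slc7a8*, *Slc7a6*, *Slc7a5* and *Slc7a1* were then no longer called, and *Slc7a12* and *Slc38a9* were newly called. Without SK-124-treated mice 1 to 3, 7 were higher and 4 lower, with *Slc3a1*, *Slc3a2*, *Slc6a8* and *Slc7a8* no longer called. Of all genes tested, 1065 were higher and 1233 lower with only those mice, and 1179 and 1267 without them. With a 1.5-fold threshold, 2 were higher and 2 lower. Leaving out each mouse in turn gave 8 to 11 higher and 4 to 7 lower. All other alternatives (DESeq2, RLE size factors, no filter, 10 or more counts per mouse, counts left unrounded, robust dispersion, and, added after seeing the data, removal of mitochondrial genes and their nuclear copies) stayed within 1.5 times. Deviations of same-numbered mice from their group means had correlations of -0.11 to 0.17, and numbers 2 and 3 matched their own number best. These correlations had no reference to be set against, so they cannot decide whether the numbers pair mice. With the replicate block 9 were higher and 6 lower, with the same 15 genes. Direction reversed for 2 genes: *Slc3a1* in TPM (-0.0064 and -0.0065 with the pseudocounts 1 and 0.1), and the uncalled *Slc7a13* with library totals (-0.0797), in TPM (-0.1092 and -0.1098), without vehicle-treated mouse 5 (-0.0076) or 6 (-0.0105, with up to 0.0821 over all mice left out in turn), and without SK-124-treated mice 1 to 3 (-0.0193). The cause was not tested. Of 500 values of single genes, 446 kept direction and side of the threshold, 42 lost and 4 gained the call, and 8 reversed. At these depths *Slc7a5*, *Slc7a6* and *Slc6a4* rest on under 100 counts per mouse.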
